A study of Mus musculus with 6 samples.

Results

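Interferon-stimulated genes are the genes that a cell switches on after interferon binds its receptor, and 40 of them were followed here in chromatin accessibility maps of mouse blood. The 40 genes are a list of interferon targets, and all 40 were found by symbol in the mouse annotation. Of these, 39 were among the 14047 genes with an open region at a start in any library. A region was given to a gene when a peak summit lay in its gene body or within 3 kb (3000 bp) of one of its annotated transcription starts, which gave 72 distinct regions of the 62876 in the series. ATAC-seq, an assay that uses a transposase (Tn5) to tag accessible DNA for sequencing, had been run on unsorted white cells of peripheral blood after lysis of red cells, as the labels and methods give them, although the study's results speak of mononuclear cells, which would hold few neutrophils. All mice were male C57BL/6j, bought at an age of 8 weeks; their age when the blood was drawn is not given in the sources used here. The HADA (high-altitude de-acclimatization) group had spent 28 days in a hypobaric chamber at a simulated 6000 m and was then returned to normal oxygen, whereas the control group had stayed in normal oxygen throughout. Each group had 3 libraries. How long after the return the blood for these libraries was drawn, and whether each library came from 1 animal, is not given in the sources used here, so p-values measure the spread between these libraries only. The comparison asked whether accessibility at interferon-stimulated genes differed in mice after the return from altitude.

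Type I interferons signal through the kinases Jak1 and Tyk2 to a complex with Stat2 and Irf9 that binds the interferon-stimulated response element (ISRE) in target promoters. Interferon gamma acts on a different element, the GAS. Among the products are transcription factors that feed back on the pathway (Irf1, Irf7, Irf9, Stat2), sensors of viral RNA, proteins that bind or degrade foreign RNA, large GTPases that attack intracellular pathogens, and the ubiquitin-like modifier Isg15 with the enzymes that attach and remove it.

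The sequences that the interferon complex is known to read were present at many of these genes. An ISRE core, written as GAAA, 2 free bases, GAAA and searched on both strands, lay within 100 bp of the summit in the start regions of 11 of 39 members (28.2%), against 160 of 9963 start regions of protein-coding genes (1.61%) and 650 of 23970 regions shared by all libraries (2.71%). The 11 were Ifit1, Ifit3, Ifih1, Oasl2, Usp18, Bst2, Rtp4, Zbp1, Parp14, Igtp and Irgm2. Igtp and Irgm2 share a start region, so these are 10 of 38 distinct regions. Anywhere in the start region, whatever its length, the core was found for 27 of 39 members (69.2%, against 11.9% of all start regions). A GAS core, TTC, 3 free bases, GAA, lay within 100 bp of the summit at 5 members (12.8%, against 3.60% of all start regions), namely Bst2, Zbp1, Parp14, Igtp and Irgm2. A match is a description of the letters and not a measured binding site. The stretches below are shown because they hold the core in start regions that differed between groups (Gbp3, Rtp4, Oasl2) and in the tallest other start regions with a core outside annotated exons and within 250 bp of the summit (Ifit3b, Bst2, Zbp1). They were read 5′ to 3′ from GRCm39 on the strand of the gene, with the core in capitals. Gbp3 is chr3:142266286-142266315 on the plus strand, 188 bp downstream of the nearest start and overlapping an exon. Rtp4 is chr16:23428607-23428645 on the plus strand, 14 bp upstream of a start and 3 bp from the summit. Oasl2 is chr5:115035549-115035578 on the plus strand, 28 bp upstream of a start. Ifit3b is chr19:34585149-34585198 on the plus strand, 154 bp upstream of a start and 198 bp from the summit, and the same 50 bases stand upstream of Ifit3 at chr19:34560753-34560802. Bst2 is chr8:71990217-71990266 on the minus strand, 128 bp upstream of a start. Zbp1 is chr2:173060732-173060781 on the minus strand, 33 bp upstream of a start and 4 bp from the summit.
Gbp3: aggagcatggTTTCGATTTCagttcctttt
Rtp4: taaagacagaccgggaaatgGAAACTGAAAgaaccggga
Oasl2: caaagcttggTTTCTGTTTCcagtttctcc
Ifit3b: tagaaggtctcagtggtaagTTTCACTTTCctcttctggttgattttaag
Bst2: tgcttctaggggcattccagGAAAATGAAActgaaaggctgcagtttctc
Zbp1: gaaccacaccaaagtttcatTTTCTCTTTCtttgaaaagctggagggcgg

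The lists held 41475, 41214 and 34045 peaks in control 1, 2 and 3 and 44401, 44044 and 45799 in HADA 1, 2 and 3. Relative depth, read from the background pileup over the genome, ranged from 1.69 to 2.05 for controls and from 1.99 to 2.34 for HADA, and total read counts were not analysed here. Heights are given as relative height, the number of overlapping fragments at a summit divided by that of the library's median shared region, so that 1 is a typical open region. A shared region had a peak in all 6 libraries, and that median region itself stood 0.38 higher over the background in HADA on the log2 scale. The lowest relative height called as a peak was 0.121 to 0.163 in the controls and 0.0978 to 0.104 in HADA libraries. Control 3 stood apart from the other controls, as described below, and values without it are given beside the interferon genes called. Most markers of blood cells, though not Klrk1, Klra8 and Siglech, had an open start in at least 1 library, and of 6 genes of other tissues 5 had no start region in any library and the sixth, Pou5f1, had one in some.

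For each gene the tallest region with a summit near a start was called its start region. Of the 40 members, 39 had a start region in all 6 libraries, at 38 distinct regions because Igtp and Irgm2, GTPases of the same locus, share one. Ifi44 had no region in any library. The summits of 35 of the 38 start regions lay within 500 bp of an annotated start. On average over the 6 libraries the tallest start regions were those of Irf1 (relative height 6.28), Isg15 (5.47, at a distant region that also lies near a start of Agrn, and 1.59 at its other region), Irf7 (4.16), Irf9 (3.63), Oasl1 (3.44) and Ifit3b (3.42), and the lowest was that of Oas1a (0.278), an oligoadenylate synthetase. The regions of Ifit3 and Oas1a have 50 bases at the summit that occur at 2 places in the genome, and how well their reads could be placed was not tested.

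**Figure D1:**
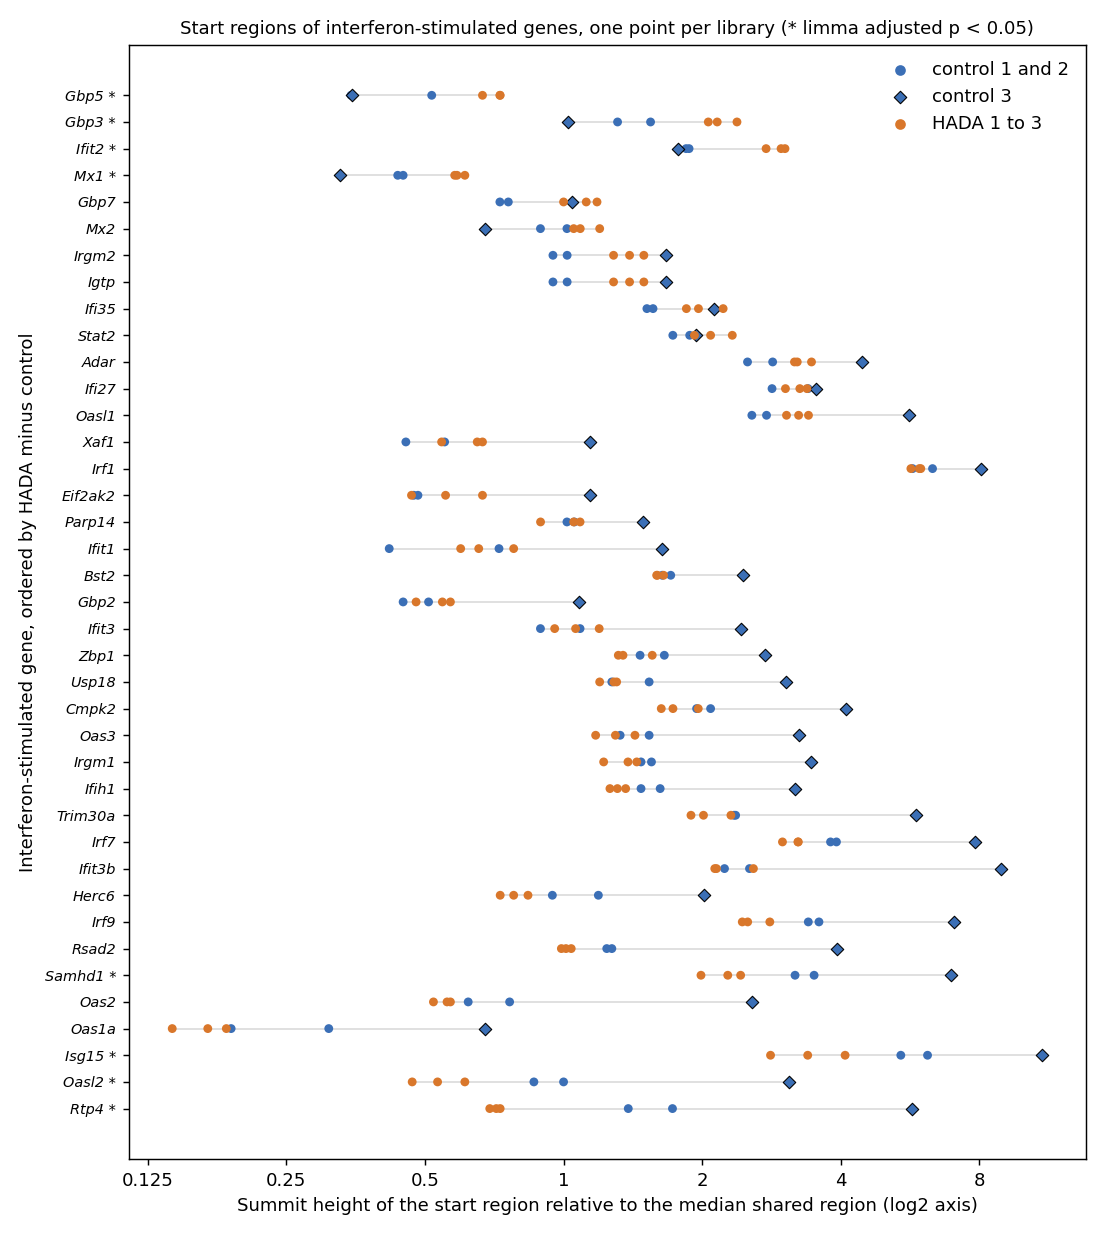
Relative summit height (log2 axis, 1 is the median shared region) of the start region of each of 39 interferon-stimulated genes, ordered by HADA minus control; circles are control 1 and 2 (blue) and HADA 1 to 3 (orange), the diamond is control 3, and asterisks mark a limma adjusted p under 0.05. Control 3 is the rightmost point at 31 of 39 genes, and the HADA points of a gene lie close together.

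Between HADA and control, 4 members had higher start regions (Ifit2, Gbp3, Gbp5 and Mx1) and 4 had lower ones (Rtp4, Oasl2, Samhd1 and, at its distant region, Isg15), by limma with Benjamini-Hochberg adjustment over all 23970 shared regions at 0.05, and 31 did not pass the test. The background in start regions of protein-coding genes was 19.5% higher and 6.73% lower, 26.2% in either direction. The members' shares were 10.3% each way and 20.5% in all. Over all shared regions 17.9% were higher and 24.1% lower, 42% in either direction, and the difference between the members and either background was not tested. The median difference over the members, HADA minus control, was −0.28 on the log2 scale, against 0.12 over all 9963 start regions, and 28 members had a negative and 11 a positive difference. Without control 3 the median was −0.10 (0.13 over all start regions), and 4 members were higher and 5 lower (15.1% and 6.09% of all start regions): Mx1 no longer passed, and Gbp7 (higher) and Irf9 (lower) did. For this and the HADA libraries left out next, all start regions are those with a peak in every remaining library. Over start regions that also had a peak in control 3, its removal gave 13.5% higher and 6.3% lower with a median of 0.12. Leaving out a HADA library cost nearly all calls. Without HADA 1 only Isg15 passed, without HADA 2 none did, and without HADA 3 Ifit2 and Gbp5 did, while the calls over all start regions fell as well, to between 2.64% and 6.83% higher and between 1.99% and 3.98% lower. The differences of the 8 called genes kept their direction and moved by at most 0.16 on the log2 scale when any HADA library was left out. Without HADA 2, 3 members were higher and 5 lower at an unadjusted p under 0.05 (17.9% and 6.10% of all start regions), against 4 and 7 with all libraries (27.0% and 10.0%). Heights that were not centred on the median region, which raises every difference by the 0.38 above, gave 6 higher (15.4%) and 3 lower (7.69%) with a median of 0.10, against 36.1% and 3.70% of all start regions with a median of 0.50. Ranks of the deposited fold enrichment within each library, which relate a summit to its local background, gave 3 higher (Oasl1, Stat2 and Gbp3) and none lower, 11 and 4 at an unadjusted p under 0.05 (20.4% and 5.85% of all start regions), with a median of 0.17, while all start regions gave 5.91% higher and 1.11% lower with a median of 0.12. In a mixture of white cells, fewer cells of a type and less open chromatin per cell cannot be told apart.

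The largest fall among the members' start regions was at Rtp4, a chaperone of receptors that also restrains RNA viruses. Its start region (chr16:23428290-23429280, GRCm39, in an intron of a longer transcript) holds the core shown above at its summit, and had relative heights of 1.72, 1.38 and 5.71 in control 1, 2 and 3 and 0.728, 0.714 and 0.691 in HADA 1, 2 and 3. All HADA libraries lay below all controls and close to each other, and control 3 was far above the rest. The difference was −1.75 ± 0.48 on the log2 scale (SE, adjusted p = 0.0235), or 3.36-fold higher in control, and −1.17 without control 3 (adjusted p = 0.00639). Oasl2, an oligoadenylate synthetase-like protein that binds double-stranded RNA, had 0.862, 1.00 and 3.08 in the controls and 0.533, 0.610 and 0.469 in HADA libraries at chr5:115034852-115036253, in the first exon. The groups did not overlap, and the difference was −1.37 ± 0.45 (adjusted p = 0.0399) with, and −0.85 (adjusted p = 0.0135) without control 3.

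Isg15 is the ubiquitin-like protein that is joined to other proteins after interferon. Its start region was not at its own start: the tallest region within reach, chr4:156281496-156282783, is intergenic and also lies within 3 kb of a start of Agrn. Its summit lay at the limit of the rule, 2971 and 2963 bp downstream of the nearest Isg15 start in control 1 and HADA 2 and 3013 to 3106 bp in the other libraries, so the region was given to Isg15 through those 2 libraries. There the heights were 6.17, 5.40 and 10.9 in the controls and 4.09, 3.39 and 2.82 in HADA libraries. The groups were apart, with a difference of −1.07 ± 0.29 (adjusted p = 0.0227) and −0.82 without control 3 (adjusted p = 0.0222). No region had a summit within 1 kb of an Isg15 start. The other Isg15 region, 2318 bp upstream of its start, had a difference of −0.68 that did not pass (adjusted p = 0.0926). Neither region held an ISRE core. Samhd1, which breaks down the nucleotides that viruses need, had 3.50, 3.18 and 6.94 in the controls and 2.42, 2.27 and 1.99 in HADA libraries at chr2:156975849-156977335, at the start in an exon. All HADA libraries lay below all controls, by −0.94 ± 0.30 (adjusted p = 0.0378) and by −0.64 without control 3 (adjusted p = 0.0238), but the direction turned with ranks of the fold (0.42, adjusted p = 0.129).

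Of the 4 genes that rose, 3 encode interferon-induced GTPases. Gbp3, a guanylate-binding protein that acts against intracellular pathogens, had 1.31, 1.55 and 1.02 in the controls and 2.38, 2.16 and 2.06 in HADA libraries at chr3:142265553-142266818, in an exon. The difference was 0.79 ± 0.20 (adjusted p = 0.019), and it passed with ranks of the fold too (0.80, adjusted p = 0.0496). Gbp5, of the same gene cluster, was lower in height, with 0.517, 0.345 and 0.347 in the controls and 0.728, 0.727 and 0.667 in HADA libraries at chr3:142202224-142203576, in an intron, a difference of 0.84 ± 0.20 (adjusted p = 0.0174). A Gbp5 region nearer to a start, 223 bp upstream, had 0.690, 0.491 and 0.735 in the controls, no peak in HADA 1, and 0.468 and 0.667 in HADA 2 and 3, so that Gbp5 could not be called there. At the start regions of both genes every HADA library was above every control. Without control 3 the differences were 0.57 (adjusted p = 0.0307) and 0.69 (adjusted p = 0.0388). Mx1, a dynamin-like GTPase that blocks influenza virus in mice with an intact gene, which C57BL/6 mice lack, had a weakly open start, with 0.448, 0.436 and 0.327 in the controls and 0.587, 0.610 and 0.580 in HADA libraries at chr16:97263495-97264669, in an exon. Its difference of 0.57 ± 0.18 (adjusted p = 0.0391) fell to 0.37 without control 3, which did not pass (adjusted p = 0.0741).

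Ifit2, which binds viral RNA and slows translation, had controls that lay close together. Its start region (chr19:34527782-34528670, in the first exon) had 1.84, 1.87 and 1.78 in the controls and 2.97, 3.03 and 2.75 in HADA libraries. The difference of 0.67 ± 0.15 (adjusted p = 0.0146) is a 1.59-fold higher height in HADA, and was 0.60 without control 3 (adjusted p = 0.0197). A region 467 bp downstream of another Ifit2 start, with an ISRE core near its summit, had a difference of 0.09 that did not pass (adjusted p = 0.807). A neighbour in the same cluster of Ifit genes, Ifit3b, had a control 3 far above the other libraries: 2.53, 2.24 and 8.90 in the controls and 2.13, 2.58 and 2.15 in HADA libraries. Control 1 and 2 lay within the HADA range, and the difference of −0.70 ± 0.48 did not pass (adjusted p = 0.267) and was −0.11 without control 3.

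**Figure D2:**
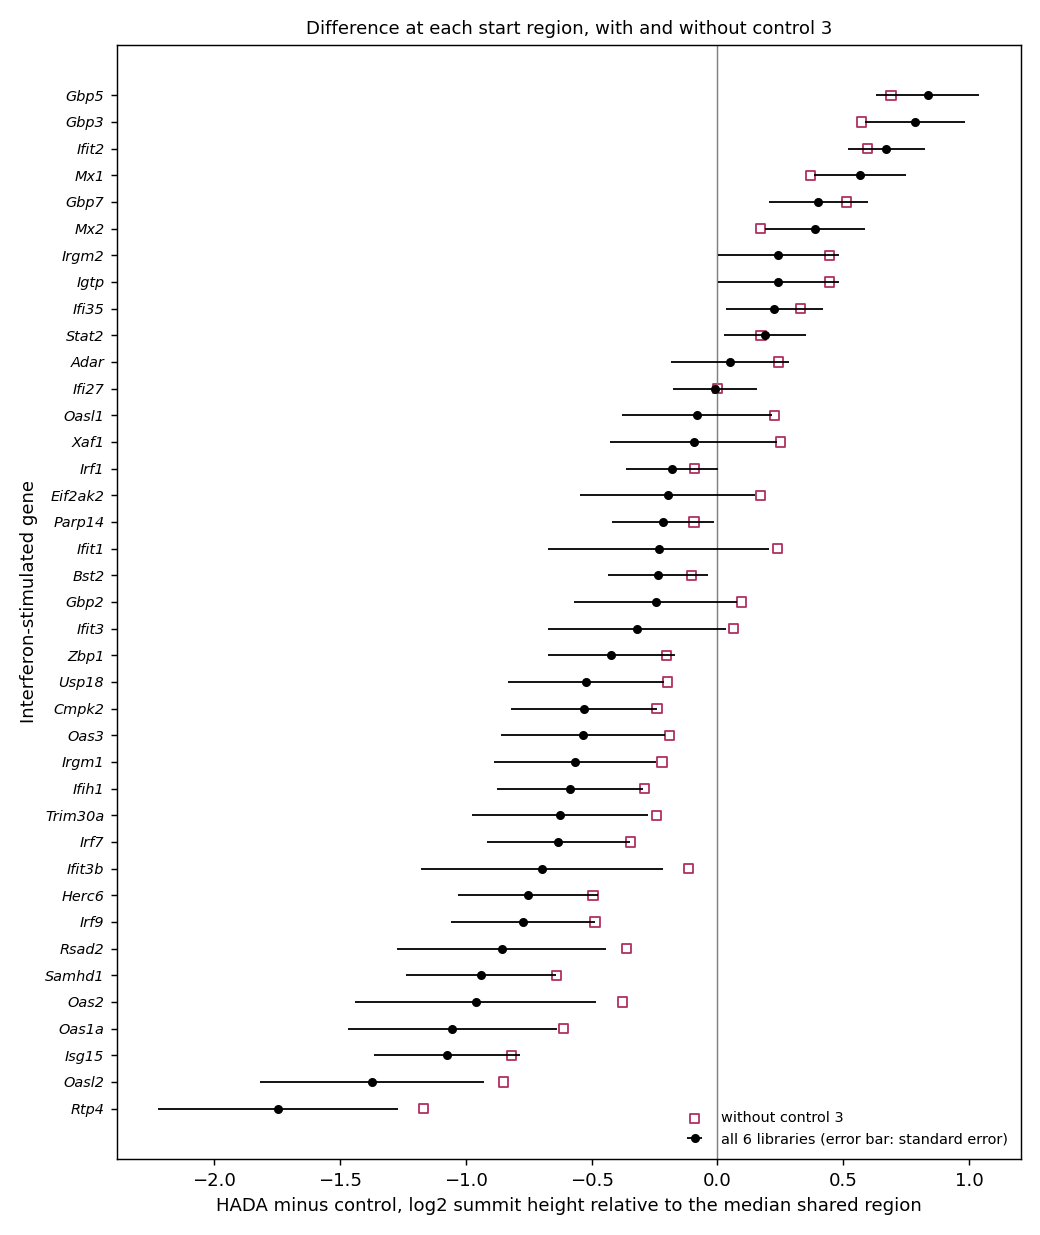
HADA minus control of log2 summit height relative to the median shared region for the start region of each gene; black points with bars are the estimate and standard error from all 6 libraries, and open squares are the estimate without control 3. At Rtp4 the estimate is −1.75 with and −1.17 without control 3, and at Gbp5 it is 0.84 and 0.69.

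Of the 4 transcription factors, none passed in either direction, where 19.5% of all start regions were higher and 6.73% lower. At 2 of the 3 tall ones every HADA library lay below the controls, as at 15% of all start regions. Irf1, a factor induced by both kinds of interferon, had 6.33, 5.73 and 8.08 in the controls and 5.97, 5.92 and 5.68 in HADA libraries, and the groups overlapped (−0.18 ± 0.18, adjusted p = 0.445). Irf7, which drives the genes of type I interferon themselves, had 3.91, 3.8 and 7.82 in the controls and 3.23, 3.23 and 2.99 in HADA libraries, a difference of −0.63 ± 0.29 that did not pass (adjusted p = 0.106), or −0.34 without control 3 (adjusted p = 0.0974). Irf9, the DNA-binding part of the interferon complex, had 3.59, 3.40 and 7.04 in the controls and 2.51, 2.81 and 2.44 in HADA libraries. Its difference of −0.77 ± 0.29 did not pass with all libraries (adjusted p = 0.0605) and passed at a smaller size without control 3 (−0.49, adjusted p = 0.0404). Stat2 had a difference of 0.19 (adjusted p = 0.372).

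The 13 genes grouped as binding or degrading RNA include Samhd1, which breaks down nucleotides. They had a median difference of −0.42, with 1 higher (Ifit2) and 2 lower (Oasl2 and Samhd1), where all start regions had a median of 0.12 with 19.5% higher and 6.73% lower. Without control 3 their median was −0.11, again with 1 higher and 2 lower. Among the 10 that did not pass, differences ran from −1.05 at Oas1a (adjusted p = 0.0723) to 0.05 at Adar, an RNA-editing enzyme (adjusted p = 0.876). Oasl1, which holds back the translation of Irf7, had 2.76, 2.56 and 5.63 in the controls and 3.24, 3.40 and 3.05 in HADA libraries, with control 1 and 2 below and control 3 above every HADA library (−0.08, adjusted p = 0.842, and 0.23 without control 3, adjusted p = 0.253). The GTPases had a median difference of 0.40 (0.41 without control 3) over 8 regions, 3 higher and none lower, where all start regions gave 19.5% and 6.73%, and the difference between these groups of genes was not tested. Among the GTPases, those that did not pass ran from −0.57 at Irgm1 to 0.40 at Gbp7. Gbp7 passed without control 3 (0.51, adjusted p = 0.0379). Of the 3 genes of the Isg15 system, Isg15 was lower at its distant region and did not pass at the other, Herc6, the ligase that attaches Isg15 in mice, had a difference of −0.75 (adjusted p = 0.0598), and Usp18, which removes it, had −0.52 (adjusted p = 0.204). Ifih1, the sensor of long double-stranded RNA, had −0.59 (adjusted p = 0.136). The remaining genes other than Rtp4 ran from −0.86 at Rsad2, which makes a chain-ending nucleotide, to 0.23 at Ifi35, and none passed. When control 3 was left out, the differences were −0.61 at Oas1a, −0.22 at Irgm1, −0.49 at Herc6, −0.20 at Usp18, −0.29 at Ifih1 and −0.36 at Rsad2, all smaller in size, and none of these passed. The start regions with an ISRE core near the summit had a median of −0.37 (10 regions, 2 lower), and those without one had −0.22 (28 regions, 4 higher and 2 lower). Over all start regions the medians were 0.02 with a core (160 regions, 29 higher and 19 lower) and 0.12 without one (9803 regions, 1911 higher and 652 lower). The members' medians without control 3 were −0.15 with a core and −0.05 without one, against 0.07 and 0.12 over all start regions.

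Control 3 set the spread of these genes. It was the highest of the 6 libraries at 31 of 39 members (79.5%, against 40.1% of all start regions), and was over 1.5 times both other controls at 27 members (69.2%, against 9.01%). The range within a group had a median of 1.08 on the log2 scale over the members in control libraries and 0.22 in HADA libraries, while over all start regions the values were 0.48 and 0.21. The groups did not overlap at some members: HADA lay above at 5 (12.8%, against 36.9% of all start regions) and below at 13 (33.3%, against 15%), and 21 overlapped. With control 1 and 2 alone, HADA lay above at 12 (30.8%, against 44.5%) and below at the same number, 13 (33.3%, against 15.5%). Summed over the start regions, the relative height was 69.2 in control 1, 64.5 in control 2 and 129 in control 3, and 63.2, 66.5 and 61.5 in HADA 1, 2 and 3. Apart from control 3, all libraries thus lay between 61.5 and 69.2.

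Cell type markers moved with this library and with the groups. In the sums below a gene without a called peak counts as 0, which held for 4 of the 8 B cell genes in control 3. Such zeros enter other sums too, since 4 neutrophil, 3 monocyte, 2 T cell and 5 NK cell genes had start regions in some libraries only. For 8 neutrophil genes, of which 4 had start regions in all libraries and 3 were lower in HADA (S100a8, Csf3r and Cxcr2), the summed height was 7.86, 6.87 and 17.2 in control 1, 2 and 3 and 2.09 to 3.44 in HADA libraries. For 8 B cell genes, with 4 in all libraries and all of these higher, it was 6.40, 4.96 and 1.06 in the controls and 14.2 to 15.4 in HADA libraries. The 8 monocyte genes summed to 7.0 to 8.06 in the controls and 3.90 to 4.74 in HADA libraries. All 5 with start regions in all libraries were lower, and the other 3 were not tested. The 8 T cell genes summed to 9.95 to 12.8 and 10.7 to 11.5, with 2 higher and 1 lower of 6. The 8 NK cell genes reached 0.429 to 1.38 and 1.28 to 1.89, with only Prf1 in all libraries and no region at Klrk1 and Klra8. Of 6 genes of plasmacytoid dendritic cells, the main producers of type I interferon, Siglech had no region, 1 of 4 in all libraries was higher (Pacsin1), and the sum was 4.29 to 5.31 in the controls and 6.27 to 6.79 in HADA libraries. That sum includes Spib, whose region lies in an exon of Pold1 and had no peak in control 3, and the median difference over the 4 was 0.03. The part of the cell mixture in the values of the interferon-stimulated genes was not tested.

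**Figure D3:**
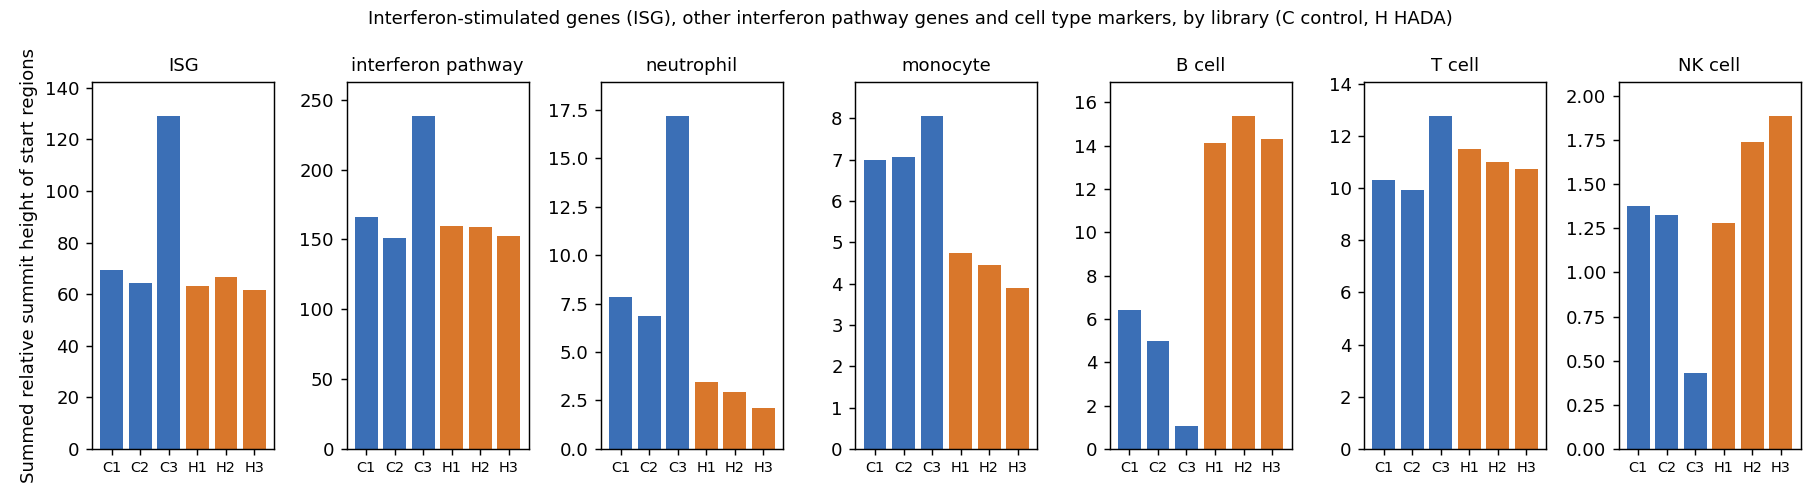
Summed relative summit height of the start regions of interferon-stimulated genes (ISG), other interferon pathway genes and cell type markers in each library (C1 to C3 control, blue; H1 to H3 HADA, orange; every axis starts at 0 and has its own scale). Control 3 has the highest ISG sum (129) together with the highest neutrophil sum (17.2) and the lowest B cell sum (1.06).

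Of 11 other regions of the members with a peak in all libraries, 3 were lower (27.3%, against 24.1% of all shared regions) and none was higher. At Oasl1 the region nearest to the start (chr5:115061020-115061675, 107 bp upstream of a start, intergenic, with an ISRE core) had 2.40, 2.47 and 9.04 in the controls and 1.08, 0.870 and 1.00 in HADA libraries. Every HADA library was below every control, by −1.95 (adjusted p = 0.0174) and by −1.37 without control 3 (adjusted p = 0.00569), whereas the region that was taller on average, 1131 bp upstream of the start, in an exon of Gm13822, had the overlapping values given above. At Irf7 a region 2326 bp upstream (chr7:140848513-140849276, intergenic, with an ISRE core) had 1.88, 1.64 and 3.69 in the controls and 1.03, 0.935 and 0.975 in HADA libraries, a difference of −1.20 (adjusted p = 0.0184) and of −0.89 without control 3 (adjusted p = 0.00886). In an intron of Rtp4, at chr16:23375843-23376834, the heights were 2.09, 2.46 and 5.98 in the controls and 1.5, 1.25 and 0.876 in HADA libraries (−1.41, adjusted p = 0.0269, and −0.99 without control 3, adjusted p = 0.0235). With ranks of the fold the regions at Oasl1 and Irf7 still passed (−1.56, adjusted p = 0.0241, and −1.17, adjusted p = 0.0245) and this one at Rtp4 did not (−0.12, adjusted p = 0.649). Another of the 11, near Samhd1 (chr2:156979884-156981366), passed as higher with ranks (0.79, adjusted p = 0.0328). By height its difference was −0.53 and did not pass (adjusted p = 0.171). These regions were named after their values had been seen. Without HADA 2 none of the 3 lower regions passed, and without HADA 3 the one at Oasl1 did. Near a second start of Ifi27, shared with Ifi27l2a, a region with an ISRE core had a difference of −1.0 that did not pass (adjusted p = 0.07) except without control 3 (−0.56, adjusted p = 0.0367).

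**Figure D4:**
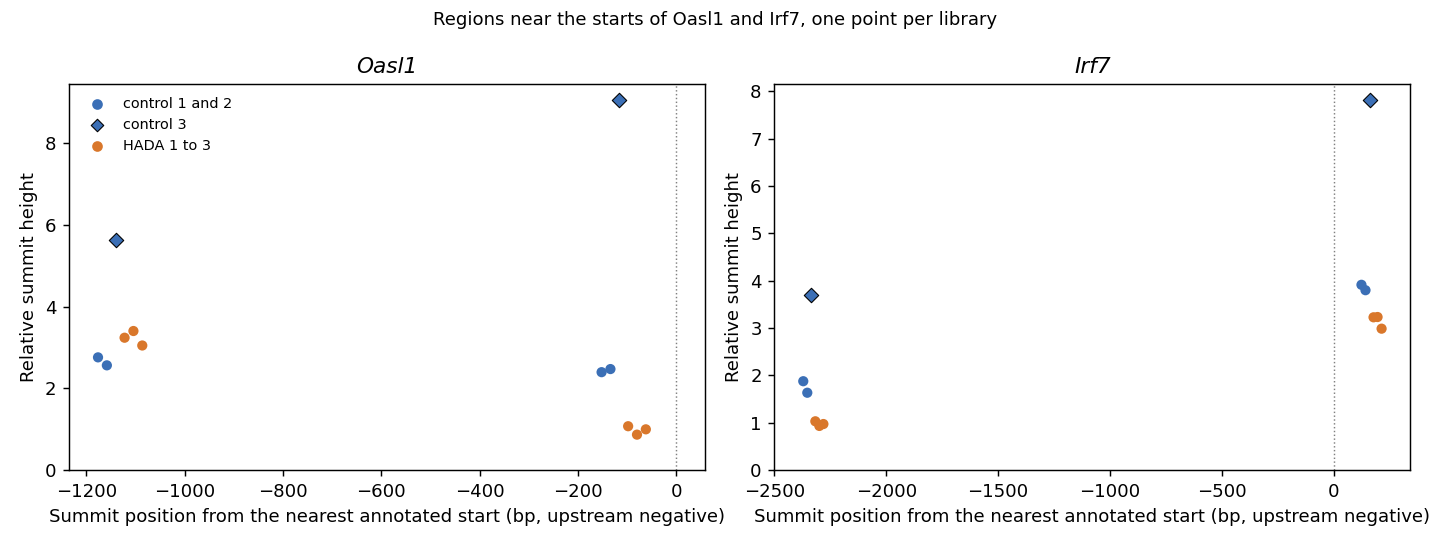
Relative summit height (linear axis from 0) of the regions near the starts of Oasl1 and Irf7 by the distance of the region's summit from the nearest annotated start (bp, upstream negative); points of 1 region are spread sideways so that they can be seen, blue circles are control 1 and 2, the diamond is control 3 and orange circles are HADA 1 to 3. The HADA points lie below all controls at the Oasl1 region 107 bp upstream and among them at the region 1131 bp upstream.

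By presence of peaks, 49 of the 72 regions had a peak in all 6 libraries, 15 in 2 to 5 and 8 in 1 library. Peaks in all HADA and no control libraries were found in 3 regions (4.17%, against 7.01% of all regions), and in all control and no HADA libraries in 1 region (1.39%, against 1.88%). With 3 libraries against 3 such a split cannot reach an exact p under 0.1. The HADA regions were weak. One in an intron of Usp18, at chr6:121237723-121238681, had relative heights of 0.25, 0.221 and 0.370 in HADA 1, 2 and 3. One upstream of Gbp2, at chr3:142324478-142325476 in an exon of its neighbour Gbp2b, had 0.380, 0.390 and 0.370. One in an intron of Samhd1, at chr2:156963589-156964222, had 0.522, 0.480 and 0.605. The control region, in an intron of Rtp4 at chr16:23410315-23410878, had 0.310, 0.418 and 0.755 in control 1, 2 and 3. A region without a call need not be closed, since the caller sets each summit against its local background. Without control 3 the counts were 5 and 3 of 72 regions (7.53% and 3.64% of all regions), and without HADA 2 there were 5 HADA regions (9.03% of all regions).

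The wider interferon pathway showed calls in both directions. Of 91 further genes, 72 had a start region in all libraries, 9 in some and 10 in none, and 10 were higher (13.9%) and 10 lower (13.9%), read against the same 19.5% and 6.73% of all start regions. Some of these genes share a region, and of 69 distinct regions 9 were higher and 10 lower. Among the 10 interferon genes, the ligands, 9 had no start region, and Ifng, interferon gamma, had one in control 2 and HADA 3 only. Of 6 receptor genes, Ifngr2, a chain of the interferon gamma receptor, was lower (5.43, 6.73 and 11.2 in control against 4.13, 3.30 and 2.98 in HADA libraries; −1.11, adjusted p = 0.0195; −0.87 without control 3, adjusted p = 0.0183). Among the kinases, Tyk2 was higher (2.02, 2.07 and 1.73 against 2.82, 2.87 and 2.99; 0.58, adjusted p = 0.0248, and 0.45 without control 3, adjusted p = 0.0413). Irf4, a factor of B cell and plasma cell development, was higher by 1.46 (adjusted p = 0.0205), and Socs3, an inhibitor of JAK kinases, was lower by −1.07 (adjusted p = 0.0321), with 0.92 (adjusted p = 0.00719) and −0.74 (adjusted p = 0.0240) without control 3. Among 10 sensors and adaptors of foreign nucleic acid with a start region, 3 were higher and 1 was lower, with a median of −0.08 (0.06 without control 3). Sting1, the adaptor of the DNA sensor Cgas, had 1.05, 1.04 and 0.898 in the controls and 1.78, 1.95 and 1.94 in HADA libraries (0.93, adjusted p = 0.00951), and Tlr9, the receptor of unmethylated DNA, had 1.59, 1.24 and 0.714 and 2.74, 3.05 and 2.80 (1.35, adjusted p = 0.0124). Without control 3 these differences were 0.80 and 0.98 (adjusted p = 0.00902 for both). Mavs, the adaptor of the RNA sensors, was higher by 0.52 (adjusted p = 0.0350, and 0.50 without control 3, adjusted p = 0.0428). Cgas itself was lower, with 1.48, 1.49 and 2.55 in the controls and 1.11, 1.04 and 1.1 in HADA libraries (−0.72, adjusted p = 0.0429, and −0.51 without control 3, adjusted p = 0.0292).

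The 3 Ifitm genes, whose products block the entry of viruses through membranes, were all lower by height, though only the region of Ifitm1 lay at the gene's own start (89 bp, in an exon). The region of Ifitm2 lay 1795 bp downstream of its start, in an intron of Gm45717 and near a start of Ifitm5, and that of Ifitm3 lay 2133 bp downstream of its start and was intergenic. With ranks of the fold none of them passed, and Ifitm2 had no lower rank (−0.42 for Ifitm1, 0.05 for Ifitm2 and −0.12 for Ifitm3, adjusted p = 0.2, 0.83 and 0.657). Ifitm3 had 1.78, 1.64 and 4.08 in the controls and 0.750, 0.532 and 0.617 in HADA libraries (−1.86, adjusted p = 0.0104), Ifitm2 differed by −1.59 (adjusted p = 0.0127) and Ifitm1 by −1.73 (adjusted p = 0.00879). All 3 were also lower without control 3, by −1.49, −1.27 and −1.56. The largest fall on this list was at Ifi204, a DNA sensor of myeloid cells, with 0.638, 0.836 and 2.82 against 0.206, 0.364 and 0.247 (−2.11, adjusted p = 0.0176, and −1.52 without control 3, adjusted p = 0.00902). Its relatives Ifi208 and Ifi209 went the other way, by 0.77 (adjusted p = 0.0162) and 0.83 (adjusted p = 0.0111), as did the shared start region of Gbp4 and Gbp8 (0.77, adjusted p = 0.0129). Ddx60, a helicase, and Isg20, an RNA nuclease, were lower by −1.09 (adjusted p = 0.0257) and −1.21 (adjusted p = 0.0337). Without control 3 the differences were 0.84 at Ifi208, 0.75 at Ifi209, 0.70 at Gbp4 and Gbp8, −0.79 at Ddx60 and −0.80 at Isg20, and all of these passed. Without control 3 the counts were 10 higher and 9 lower, with Ifi47 and Parp12 lost and Il10rb gained. Without HADA 1, 2 or 3 they were 6 and 5, 1 and 3, and 6 and 3. Over all start regions with a peak in the remaining libraries, 15.1% were higher and 6.09% lower without control 3. Without HADA 1, 2 or 3 these shares fell as well, to 6.83% and 3.98%, 2.64% and 1.99%, and 6.27% and 3.07%. Of the genes called by height, Ifi208 alone passed with ranks of the fold (adjusted p = 0.0471).

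The ISRE core was counted once more over all peaks of a library. It lay within 100 bp of the summit in 2.88%, 2.80% and 2.53% of peaks in control 1, 2 and 3 and in 2.92%, 3.02% and 3.00% in HADA 1, 2 and 3. The means were 2.74% ± 0.18 and 2.98% ± 0.052 (SD, n = 3 each), with every HADA library above every control, and the two-sided exact permutation p was 0.1, the smallest that 3 libraries against 3 can give. With the longer core, AGTTTC, 2 free bases, TTTC, the groups overlapped (0.292% and 0.302%, n = 3 each, exact permutation p = 0.8).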

How the data were processed

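Peak lists of 6 ATAC-seq libraries of mouse blood white cells, 3 control and 3 HADA per the labels, were analysed. Before deposit, the authors used Trimmomatic for trimming, Bowtie2 for alignment to GRCm39, Picard for the removal of duplicates and MACS2 for peaks, library by library. Versions, options and any Tn5 shift are not given in the sources used here. The deposited lists give for each peak its fold enrichment (a ratio of summit to local background), its score, its q-value and p-value as −log10, and where the summit lies. The whole-number summit pileup was solved from the deposited fold and −log10 p-value, since MACS2 takes the first as (pileup + 1) / (background + 1) and the second from a Poisson tail.

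Peaks on the 21 main chromosomes that shared 1 bp were merged into regions. Of the regions in which at least 1 library had a summit within 3000 bp of a start in the GENCODE annotation, the tallest on average was the start region of a gene. The log2 pileup, centred on the library's median over 23970 shared regions, was compared with limma 3.58.1 in R 4.3.3 (no covariates, Benjamini-Hochberg over all shared regions, 0.05). The procedure was also run on simulated data with the same spread in every region and library. Such data lack the wider spread of the controls at these genes, so they do not test the calls there. Single percentages were compared by exact permutation tests. Python 3.11.15 was used otherwise. Coordinates are GRCm39, 1-based, and 22.1% of summits lay within 100 bp of a start of that annotation, against 2.07% after a shift. Values were given for the called members, the 6 tallest, those in 1 group only and those with no start region, and for all called pathway genes other than Ifi47 and Parp12. The plan was at most 8 pathway genes with the smallest p in each direction, and Mavs and Cgas lie outside it. Sequences were printed for 6 members, called ones first. The members and lists were chosen with earlier results of these data known. Alternatives covered scaling, ranks of the fold, stricter peaks, summit windows, unique summits, a 1000 bp limit, a replicate block and each library left out. The number of reads was not analysed, so no counting interval is given.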

Additional observations from a re-analysis of the deposited data

How the results depend on the processing

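Counts of members higher and lower (4 and 4) changed with the measure and with the HADA libraries. Without centring they were 6 and 3 and the median difference was 0.10, with 7433 of all shared regions higher and 4396 lower, a share of higher calls of 62.8% against 42.7% (4291 and 5769) with centring. With ranks of the fold they were 3 and 0, the median was 0.17, all shared regions gave 1574 and 1147 (57.8% higher), and Samhd1 turned to 0.42. The causes were not tested. With peaks in at least 4 libraries, 6864 of 36124 regions were higher (19.0%, against 17.9%), and 3 members were higher and 3 lower, without Mx1 and Oasl2. With each library left out in turn, members higher ranged from 0 to 4, members lower from 0 to 6, the median from −0.56 to −0.10, all regions higher from 737 to 4813 and all regions lower from 2021 to 5917. Summit windows gave 5 of 86 regions with peaks in HADA only (5.81%, against 5.37% of all regions), compared with 3 of 72, and with libraries left out these ranged up to 5 and control-only regions from 1 to 3. The same replicate numbers did not deviate together (correlations −0.08, 0.08 and −0.38), so they are shared numbers only. With the replicate block 3 members were higher and 5 lower, 2991 and 5660 of all regions, Mx1 was lost and Oas1a gained, and the ISRE share differed by 0.246 points with a p of 0.25. The difference in ISRE share was between 0.143 and 0.319 points with each library left out. For the called genes, 81 values kept direction and call, 34 lost the call and 1 reversed. A region nearest to a start in place of the tallest, added after the data were seen, gave 3 higher and 4 lower, without Gbp5 and Isg15 and with Oasl1. The members' median was then −0.51, against −0.28 with the tallest region, and summit windows gave −0.44. Depth limits the weak regions, since a peak below a relative height of about 0.1 to 0.16 could not be called.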
